A study of Mus musculus with 2 samples.

Results

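Genes of the endoplasmic reticulum (ER) stress response, also called the unfolded protein response, were followed in single cells of mouse pancreatic islets. The list holds 38 genes, chosen by name from what is known of the pathway and found by symbol in the count matrices. Both groups came from C57BL/6N mice aged 5 weeks with loxP-flanked Tbl1x and Tbl1xr1 genes, which encode a pair of transcription co-factors. In the group labelled TBL/RBKO, Cre recombinase inserted at the Ins1 locus was to delete both genes in β cells, while the controls, labelled wildtype, were littermates without Cre. Each group gave 1 library of 150 islets pooled from 4 mice and kept in culture overnight. With 1 library on each side, the spread between mice is unknown and no test was possible. Intervals are exact 95% intervals and cover counting error only.

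Proteins that enter the ER, such as proinsulin, are folded there by chaperones and receive disulfide bonds from oxidases and isomerases. When unfolded protein builds up, the sensors IRE1 (Ern1), PERK (Eif2ak3) and ATF6 (Atf6) switch on genes for folding and for degradation of misfolded protein, and PERK slows translation while its effector ATF4 turns on amino acid and stress genes. β cells are known for a high load on this pathway because insulin makes up much of what they synthesize.

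Cells were kept with over 2500 detected genes and under 10% of UMIs from mitochondrial genes, with no upper limit on genes, and were assigned to the hormone (Ins1 and Ins2 for β, Gcg for α, Sst for δ, Ppy for PP) with the most UMIs, of at least 100 per 10000. A UMI is a random tag by which copies of the same captured RNA molecule are counted once. This gave 2877 control and 1338 TBL/RBKO β cells, 1284 and 1546 α cells, 223 and 374 δ cells, and 259 and 495 PP cells, from libraries of 241434108 and 185062206 UMIs that had 14 barcodes in common. Levels are given in UPM, the UMIs per 1000000 UMIs that remain without the hormone and mitochondrial genes. In both libraries β, α and δ cells held all their listed markers at 10 UPM or more. Of the PP genes, Cmtm8 stood at 8.29 and 3.29 UPM in PP cells, beside 11.26 and 6.75 in α cells. Id4 stood at 25.2 and 16.8 UPM in PP cells, beside 27.1 and 20.9 in δ cells. Of 5 acinar genes, Prss2, Cpb1, Cpa1 and Pnlip lay at or near 0 in β cells, and Cela1 stood at 13.1 and 19.0 UPM there. The targeted genes went against the label, with 233 and 616 UPM of Tbl1x in β cells and 48.1 and 226 of Tbl1xr1. Counts at the 3′ end do not show whether the deleted exons were present, so the second library is called by its label throughout. It held 3250 Cre UMIs and the control 0, which allows up to 3. Of all β-cell UMIs insulin took 49.6% (control) and 27.9% (TBL/RBKO), and a median β cell held 21450 and 38667 UMIs once hormone and mitochondrial genes were set aside. Of the β cells, 16.3% and 60.8% had at least 100 UMIs per 10000 of 2 or more hormones. Markers of other cells also differed in β cells. The 4 PP genes summed to 18196 and 92751 UPM, the 3 ductal genes to 62.2 and 380, the 5 stromal genes to 53.2 and 133 and the 5 macrophage genes to 155 and 38.03. Their part in the results below was not tested.

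The log2 ratio of the library labelled TBL/RBKO over the control is given relative to the median of all genes tested in the class, which was -0.16 in β cells and is 0 on this relative scale. A gene was tested when the mean of both libraries reached 10 UPM. Of the 38 genes, 37 met this in β, δ and PP cells and 36 in α cells. Derl3, a channel protein of ER-associated degradation, failed it in every class, with 260 and 82 UMIs in β cells.

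In β cells the list as a whole had no common direction. Of its 37 genes tested, 1 was lower and 0 were higher past 2-fold, against 6.21% of the 9427 genes tested that were past 2-fold either way, 2.16% lower and 4.04% higher. Ero1b, the oxidase that passes oxidizing power to protein disulfide isomerases, was the gene past 2-fold. The median relative log2 ratio of the 37 genes was -0.01, and 17 had intervals above 0, 17 below it and 3 across it. Counting intervals are narrow in sums this deep, and 40.2% of all genes tested had intervals above 0 and 39.3% below it, so counts of such intervals say little by themselves. Their median distance from 0 was 0.21, as it was over all genes tested. At 1.5-fold, which 15.2% of all genes passed, Ern1 and P4hb were higher and Ero1b and Sdf2l1 lower.

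**Figure D1:**
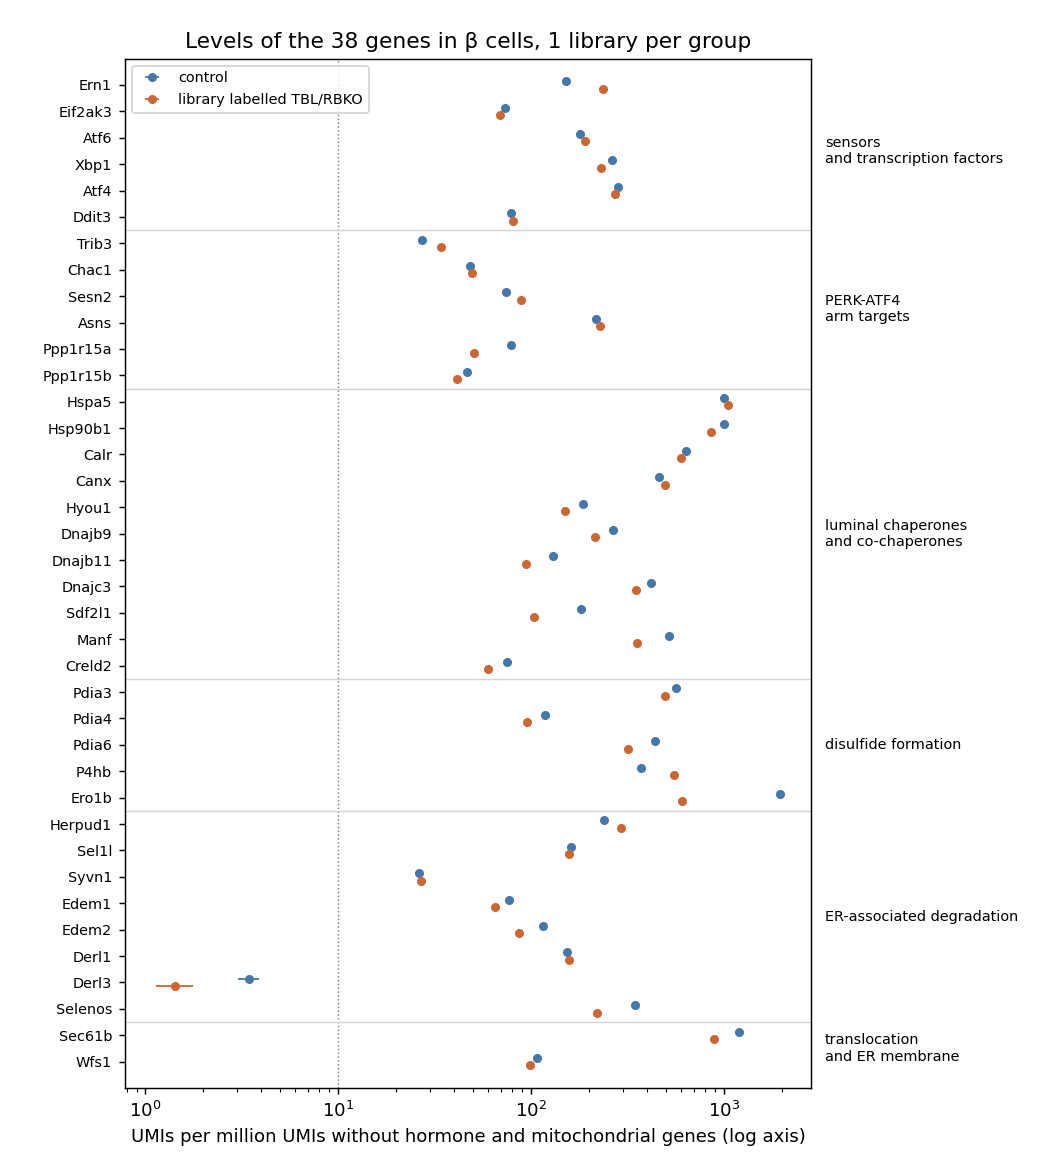
Level of each gene in β cells (horizontal log axis, UPM) in the control library and the library labelled TBL/RBKO, grouped by role, with exact 95% counting intervals as bars that are mostly smaller than the points. The dotted line marks 10 UPM. Ero1b shows the widest gap among the genes tested, 1952 against 611 UPM, and Derl3 alone lies under the line in both libraries.

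The direction of many of these genes depended on the scaling. Without subtraction of the median, the members' median was -0.17, and as CPM, where all UMIs form the total, it was 0.28. The sign of 13 members was above 0 in all 3 scalings, against 30.7% of all genes, and that of 7 was below 0 in all 3, against 17.4%. For the other 17 members, Xbp1, Atf4 and Eif2ak3 among them, the sign depended on the scaling, so no direction is given for them. A change of scaling moves all genes of a class by the same amount. In β cells the median of all genes was 0 on the relative scale, -0.16 without subtraction and 0.29 in CPM. A sign shared by all 3 scalings thus reflects only the size of a gene's ratio and is no separate check of it.

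The sensors and transcription factors were near the median gene apart from Ern1. Ern1, which encodes the sensor that splices Xbp1 mRNA, stood at 153 UPM (150 to 156) in control and 238 (234 to 242) in TBL/RBKO β cells, a relative log2 ratio of 0.80 (0.76 to 0.84). Atf6 stood at 181 and 191 UPM, a relative log2 ratio of 0.24 (0.21 to 0.28). Eif2ak3, the PERK gene, stood at 73.7 and 69.4 UPM and had 0.07 (0.01 to 0.13). Atf4, the factor translated when PERK is active, stood at 282 (278 to 286) and 273 (269 to 277) UPM, with a relative log2 ratio of 0.11 (0.08 to 0.14). Xbp1, the factor activated by IRE1, stood at 262 (258 to 266) and 230 (226 to 234) UPM and had -0.03 (-0.06 to 0.00). The UMIs count the gene and do not separate spliced from unspliced Xbp1. Ddit3, which encodes CHOP, a factor tied to cell death under lasting stress, stood at 78.8 (76.8 to 80.8) and 80.9 (78.6 to 83.3) UPM, with 0.20 (0.14 to 0.25). Of the 6 genes only Ern1 thus lay past 1.5-fold. With fewer than 6000 detected genes per cell, the study's own filter, the relative log2 ratio of Atf4 was 0.39, that of Ddit3 0.091 and that of Ern1 0.62. This filter cuts the libraries unevenly, as 49.5% of control and 76.7% of TBL/RBKO β cells had 6000 genes or more.

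The 6 genes grouped under the PERK and ATF4 arm, of which Ppp1r15b is constitutive, had a median of 0.21. Of them 0 were past 2-fold, and 4 intervals lay above 0 and 1 below it. Trib3, a pseudokinase induced by CHOP, stood at 27.3 and 34.3 UPM in β cells, a relative log2 ratio of 0.49 (0.40 to 0.58). Sesn2, a regulator of growth signalling under stress, had 0.42, Asns, which makes asparagine, 0.24 and Chac1, which breaks down glutathione, 0.19. All 4 were above 0 in each scaling. Ppp1r15a, the phosphatase subunit GADD34 that restarts translation, stood at 78.9 and 50.9 UPM and had -0.47 (-0.54 to -0.41), below 0 in each scaling. Its constitutive relative Ppp1r15b had -0.01 (-0.09 to 0.07).

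The luminal chaperones divided. Hspa5, which encodes BiP, the main Hsp70 chaperone of the ER, stood at 1007 UPM (1000.2 to 1014.5) and 1052 (1044 to 1060.5), a relative log2 ratio of 0.22 (0.21 to 0.24). The lectin chaperone Canx had 0.28 and was likewise above 0 in each scaling, whereas its relative Calr, at 0.06, was not. Sdf2l1, a partner of BiP, stood at 182 UPM (179 to 185.3) in the control and at 104 (101 to 107) in the library labelled TBL/RBKO, a relative log2 ratio of -0.65 (-0.69 to -0.61). Manf, a secreted protein made under ER stress, stood at 522 and 357 UPM and had -0.39, and Dnajb11, a cofactor of BiP, had -0.30. These 3 were below 0 in each scaling. The values moved with the cells taken: with fewer than 6000 detected genes per cell, the relative log2 ratio of Sdf2l1 was -0.20 and that of Hspa5 0.61, past 1.5-fold. Without subtraction of the median that of Hspa5 was 0.063. Hsp90b1, Hyou1, Dnajb9, Dnajc3 and Creld2 lay between -0.17 and -0.07, within the range that scaling turned.

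Of the 5 genes of disulfide formation, 1 was lower past 2-fold and another was higher past 1.5-fold. Ero1b (ENSMUSG00000057069, GRCm39 chromosome 13, 12580716 to 12626285) stood at 1952 UPM (1942 to 1962) in control and 611 (605 to 618) in TBL/RBKO β cells. Its relative log2 ratio was -1.51 (-1.53 to -1.50), and 75 of the 9427 genes tested were lower. It took 15.9% of the UMIs of the 38 genes in control β cells and 6.12% in the other library. Without it the summed level of the list was 10343 and 9374 UPM. P4hb (ENSMUSG00000025130, chromosome 11, 120451122 to 120464538), the classical protein disulfide isomerase, stood at 373 UPM (369 to 378) and 550 (544 to 556), a relative log2 ratio of 0.72 (0.70 to 0.74). Under the alternatives run over all β cells, Ero1b lay between -1.67 and -1.01 and P4hb between 0.56 and 1.01. Between β cells of like insulin share, given further on, Ero1b was not past 2-fold in any bin, and in the highest bin its ratio was above 0. The other isomerases had -0.31 (Pdia6), -0.15 (Pdia4) and -0.02 (Pdia3), with Pdia6 below 0 in each scaling.

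Among genes of ER-associated degradation, which removes misfolded protein from the ER, Herpud1 stood at 239 and 293 UPM in β cells, a relative log2 ratio of 0.46 (0.43 to 0.49). The ubiquitin ligase Syvn1 had 0.21 and the channel protein Derl1 0.20, both above 0 in each scaling. Selenos, a selenoprotein of the retrotranslocation complex, stood at 346 and 221 UPM and had -0.49 (-0.52 to -0.46), below 0 in each scaling. Sel1l, Edem1 and Edem2 had 0.13, -0.08 and -0.26. Sec61b, a subunit of the translocation channel, stood at 1205 and 895 UPM with -0.27, and Wfs1, the ER membrane protein lost in Wolfram syndrome, had 0.03.

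**Figure D2:**
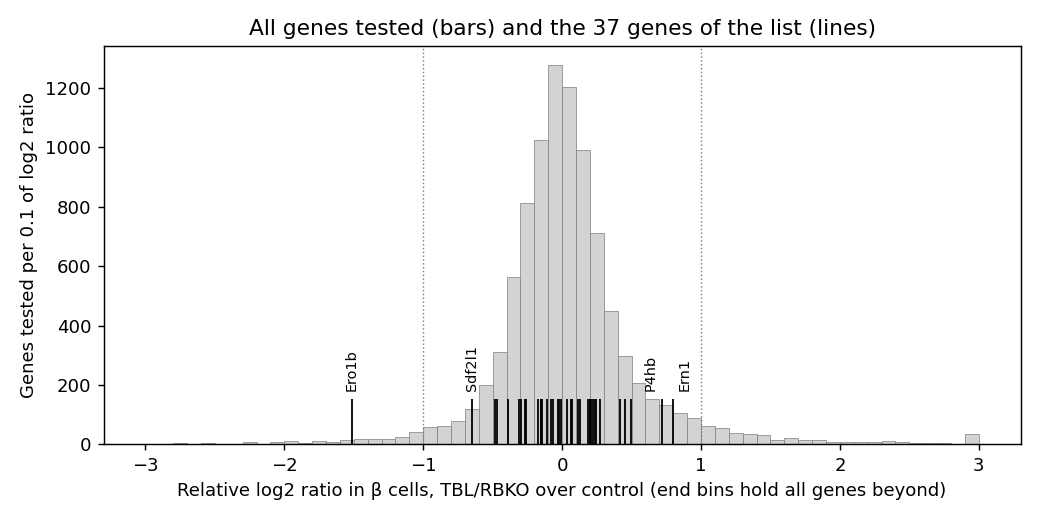
Relative log2 ratio in β cells (horizontal axis, TBL/RBKO over control) of all 9427 genes tested, as the number of genes per 0.1 of log2 ratio (bars), with the 37 genes of the list as short lines. The lines lie among the bulk of all genes, between -0.65 and 0.80, except Ero1b at -1.51, and dotted lines mark 2-fold.

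The upstream sequences of the genes were read to see which stress elements they share, since XBP1, ATF6 and ATF4 bind known motifs. In the 300 bases before the annotated start of 21757 protein-coding genes (GENCODE M39 on GRCm39, both strands), the ER stress element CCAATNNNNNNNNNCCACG occurred in 0.115% of all genes and in 10 of the 38 members (26.3%). The second element ATTGGNCCACG occurred in 0.0552% and in 3 members (Hyou1, Manf and Herpud1). The amino acid response core TGATGNAA occurred in 4.06% and in 5 members (Ddit3, Chac1, Sesn2, Ppp1r15b and Herpud1), and the core of the unfolded protein response element, TGACGTGG, in 0.625% and in Hyou1, where it overlaps the second element. These motifs share letters, as CCACG ends both ER stress elements and is the reverse complement of CGTGG. Matches below are shown because Ero1b carries the same element as Hspa5 and Canx, with opposite ratios in β cells. Each is given in the direction of its gene with the motif in capitals.
Ero1b (chr13:12580543-12580601, plus strand): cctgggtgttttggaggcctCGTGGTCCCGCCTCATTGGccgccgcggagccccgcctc
Hspa5 (chr2:34662017-34662075, plus strand): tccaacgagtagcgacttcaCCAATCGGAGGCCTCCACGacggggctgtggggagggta
Canx (chr11:50216607-50216665, minus strand): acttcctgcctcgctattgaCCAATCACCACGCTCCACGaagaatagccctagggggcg
Pdia6 (chr12:17316472-17316530, plus strand): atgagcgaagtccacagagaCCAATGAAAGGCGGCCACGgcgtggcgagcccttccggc
Manf (chr9:106769218-106769268, minus strand): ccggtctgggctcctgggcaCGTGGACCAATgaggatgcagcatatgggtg
Chac1 (chr2:119181510-119181557, plus strand): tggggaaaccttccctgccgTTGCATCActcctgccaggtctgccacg
The 9 tested members with the first element had relative log2 ratios in β cells from -1.51 for Ero1b to 0.28 for Canx, with a median of -0.07. The 28 tested members without it had a median of 0.01. Between β cells of 20 to 60% insulin share, given further on, the order was the other way, with medians of 0.37 with the element and 0.27 without it. The 5 members with the amino acid response core had a median of 0.20 over all β cells and ranged from -0.01 to 0.46. The 32 without that core had a median of -0.05. At like insulin share these medians were 0.47 and 0.28. The differences were not tested. A match describes the letters in this window and not the binding of a factor.

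Other classes were compared because Cre was driven from a β-cell gene. In α cells 0 of 36 members were past 2-fold, beside 0.68% of all genes, and the median was -0.04. In δ cells 1 of 37 was past 2-fold, beside 1.23%, with a median of -0.03. In PP cells 0 of 37 were past 2-fold, beside 5.37%, with a median of 0.02. The members' median distance from 0 was 0.32 in PP cells, beside 0.24 over all genes tested there. At 1.5-fold 4 were higher and 1 lower in PP cells, beside 14.9% of all genes either way. The PP class of the library labelled TBL/RBKO also stood apart in Tbl1x, at 197 and 562 UPM, much as β cells did.

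**Figure D3:**
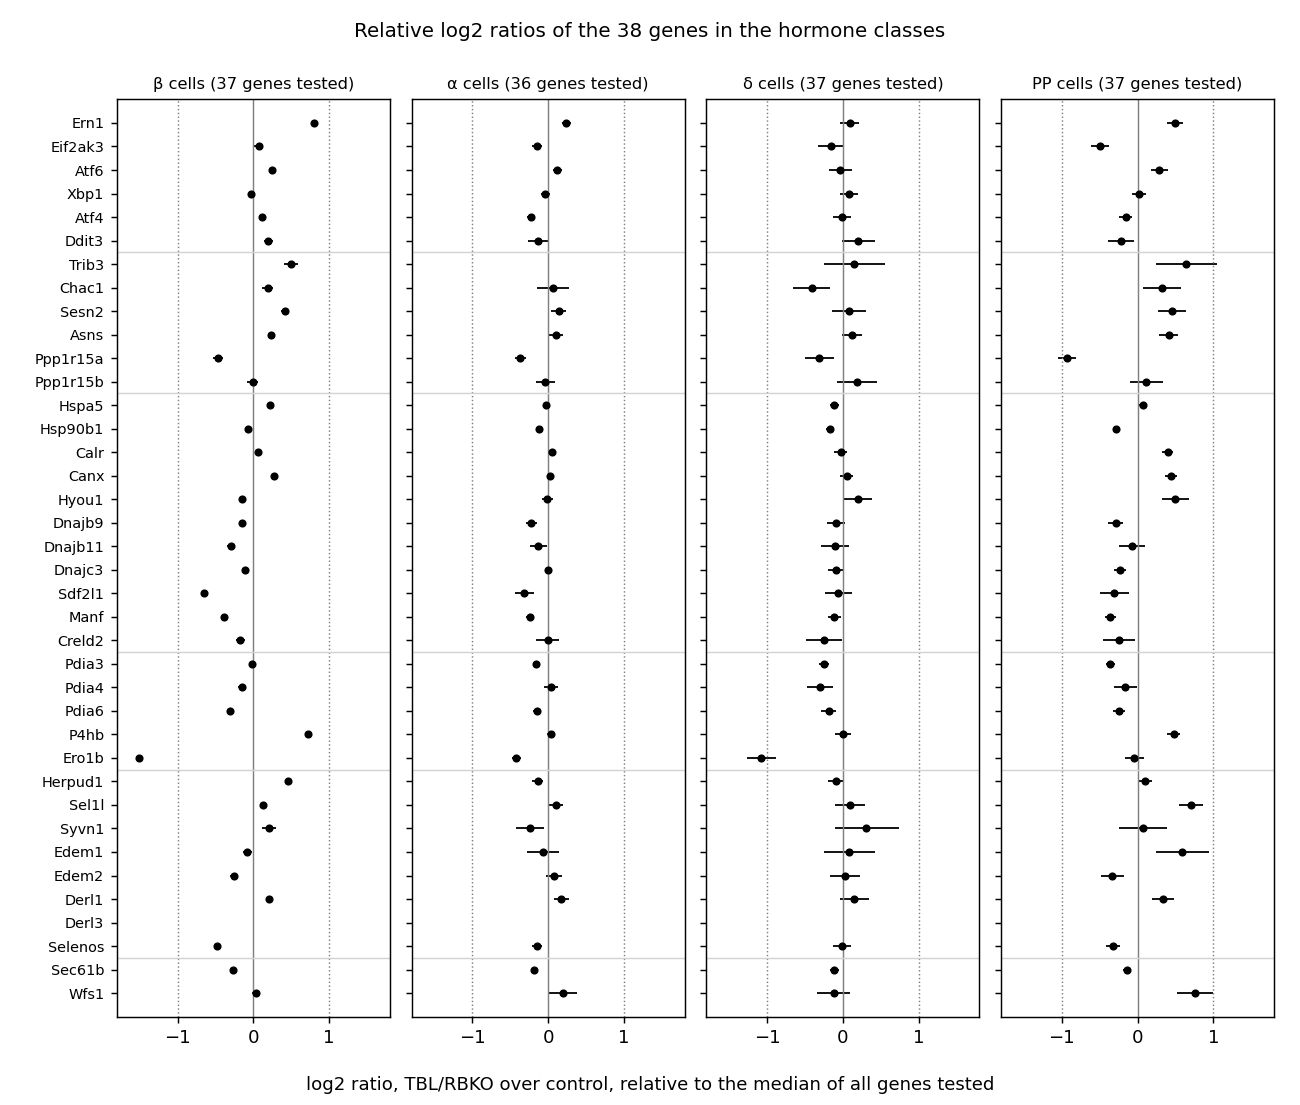
Relative log2 ratio (horizontal axes, TBL/RBKO over control, 0 at the median of all genes tested in the class) of each gene tested, in β, α, δ and PP cells, with exact 95% counting intervals as bars and dotted lines at 2-fold. Ero1b is past the line in β and δ cells, while Ern1 and P4hb lie right of 0 in β and PP cells.

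Ero1b was lower in the library labelled TBL/RBKO in β, α and δ cells. It stood at 223 UPM (216 to 229) and 169 (164 to 174) in α cells, a relative log2 ratio of -0.42 (-0.48 to -0.36). In δ cells it stood at 118 (108 to 129) and 55.5 (50.4 to 60.9), a relative log2 ratio of -1.08 (-1.27 to -0.89). That value was -0.71 with cells under 5% mitochondrial UMIs and -0.95 with free RNA subtracted, which ended the 2-fold call, and it was -1.89 with fewer than 6000 genes per cell and -2.43 in cells of 1 hormone. Its levels in PP cells, 134 (125 to 144) and 123 (117 to 129), had intervals that overlap. Free RNA was estimated at 2.60% (control) and 2.31% (TBL/RBKO) of UMIs in α cells and at 2.79% and 2.65% in δ cells. Mafa, a β-cell factor, stood at 27.0 and 1.07 UPM in α cells and at 28.4 and 2.16 in δ cells, and at 1112 and 150.1 in β cells themselves. The part of free RNA in the Ero1b values of α and δ cells was examined only by the subtraction, under which the ratio in α cells was -0.31.

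Hspa5 stood at 684 and 681 UPM in α cells, 944 and 867 in δ cells and 768 and 765 in PP cells. Its relative log2 ratios were -0.03, -0.11 and 0.07 there. Xbp1 had -0.04 in α, 0.08 in δ and 0.02 in PP cells, from levels of 185.1 and 184, 203 and 213, and 237 and 228.5 UPM. Intervals of all 3 Xbp1 ratios spanned 0. Atf4 stood at 230 and 200 UPM in α cells (-0.23), 216 and 213 in δ cells (-0.01) and 258 and 219 in PP cells (-0.16). Ddit3 stood at 43.3 and 40.2 in α cells (-0.13), 63.0 and 71.9 in δ cells (0.20) and 77.3 and 63.1 in PP cells (-0.22). Ppp1r15a was below 0 with its whole interval in all 4 classes, at -0.47 in β, -0.36 in α, -0.31 in δ and -0.93 in PP cells.

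Within each library, the list was higher in β cells than in α cells. Relative to the median gene, 12 members were higher in β cells past 2-fold in the control, beside 6.88% of all genes, and 14 in the library labelled TBL/RBKO, beside 8.59%. Of these, 11 were higher in both libraries, and Eif2ak3 and Ppp1r15a were lower in both. The shares of all genes called in both libraries, or called lower in β cells, were not counted. The median over the 37 members was 0.76 and 0.72. Ero1b had the widest gap in the control, a log2 ratio of β over α of 3.09 (3.05 to 3.13), which was 1.98 (1.93 to 2.02) in the library labelled TBL/RBKO. Wfs1 had 2.42 and 2.24, Edem1, a lectin that sends misfolded glycoproteins to degradation, 2.22 and 2.19, and Trib3 2.48 and 2.74. P4hb (0.52 and 1.19), Herpud1 (0.76 and 1.33) and Ddit3 (0.82 and 1.13) were past 2-fold only in the library labelled TBL/RBKO, and Selenos (1.08 and 0.72) only in the control. These differences between the libraries were not tested.

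Since insulin differed between the libraries, β cells were next set side by side at like insulin content, in bins of 10 percentage points of the Ins1 and Ins2 share of all UMIs. In both libraries most of the list stood higher where insulin was higher. Summed over the 38 genes, control β cells held 9344 UPM at 20 to 30% insulin and 13291 at 50 to 60%, and TBL/RBKO β cells 10261 and 14751. Of the 37 members tested, 33 and 32 had a ratio above 0 between these 2 bins, with medians of 0.43 and 0.42. The sensor genes Ern1 (-0.23 and -0.37) and Eif2ak3 (-0.54 and -0.25) were below 0 in both libraries. By the subtraction of the median, as many of all genes tested lie above 0 as below it. The share of cells marked as doublets differed between these bins in both libraries, most in the control, as given below, and its part here was not tested. Ero1b was past 2-fold in both libraries, where 1.15% and 1.68% of all genes were higher and 4.11% and 3.6% lower. It stood at 874 and 2300 UPM in the control and at 546 and 1541 in the library labelled TBL/RBKO. Sdf2l1 was past 2-fold in the latter alone, at 103 and 238 UPM, beside 115 and 207 in the control.

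At like insulin share, most members stood higher in the library labelled TBL/RBKO relative to the median gene. In the 4 bins from 20 to 60%, which held at least 100 cells of each library, the members' median relative log2 ratio was 0.34, 0.32, 0.26 and 0.34. In all 4 bins 30 of 37 members were above 0, beside 32.2% of all genes, and 2 were below 0, beside 30.8%. The mean of the 4 medians was 0.32, and it was 0.14 without subtraction of the median of all genes and 0.12 in CPM, where 18 and 17 members were above 0 in all 4 bins. Of all genes, 17.3% and 16.1% were above 0 throughout in these scalings, and 51.3% and 53.1% below it, beside 4 members in each. P4hb had relative log2 ratios from 0.960 to 1.246 and Hspa5 from 0.50 to 0.90. Herpud1, Syvn1, Asns and Calr had at least 0.45 in each bin. Sdf2l1, lower over all β cells, was at 0.02 to 0.37, and Manf, Selenos, Xbp1, Eif2ak3 and Ppp1r15b lay on both sides of 0. Ero1b (-0.71 to -0.41) and Ppp1r15a (-0.65 to -0.17) were the 2 members below 0 in all 4. Outside this range the members were less uniform. At 0 to 10%, 10 to 20% and 60 to 70% insulin their median was 0.18, 0.25 and 0.19, with 22, 26 and 25 of 37 above 0. Past 2-fold, 5 were higher and 1 lower at 0 to 10%, 1 was higher at 10 to 20% and 3 were lower at 60 to 70%. Of all genes, 22.7%, 9.76% and 6.78% were past 2-fold either way in these bins.

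**Figure D4:**
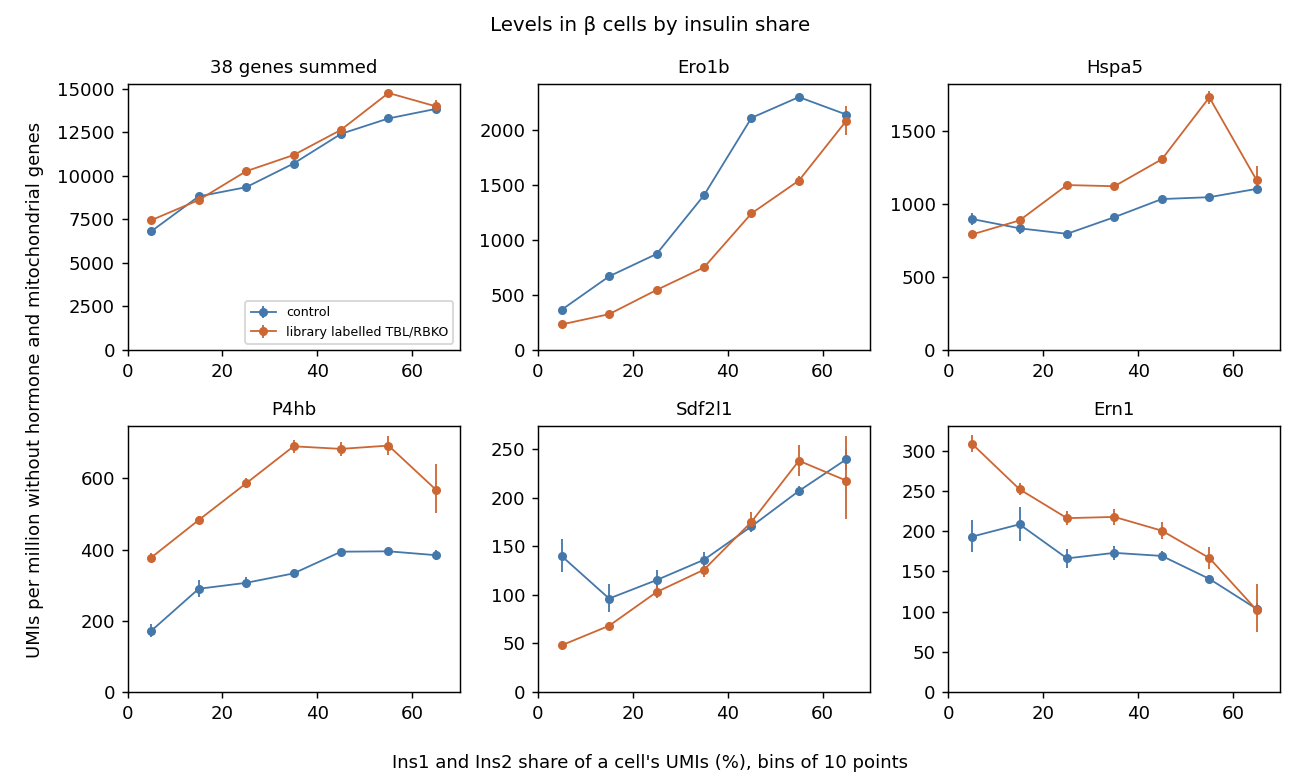
Level in β cells (vertical axes, UPM) against the insulin share of a cell's UMIs in bins of 10 percentage points, for the 38 genes summed and for 5 of them, in both libraries, with exact 95% counting intervals as bars. Ero1b of the library labelled TBL/RBKO lies under the control in each bin up to 60%, P4hb lies above it in each bin, and Ern1 is lowest in the highest bin of both.

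The bins did not hold like cells in other respects. At 20 to 30% insulin, a doublet caller marked 33.3% of the 111 control cells and 10.8% of the 240 cells of the library labelled TBL/RBKO, and at 50 to 60% it marked 5.06% of 1147 and 4.17% of 120 cells. In the lowest bin, control cells held a median of 8431 UMIs without hormone and mitochondrial genes and the others 40144. The highest bin held 21 cells of the library labelled TBL/RBKO, and Ero1b there was at 2141 (2109 to 2173) and 2085 (1958 to 2218) UPM. Its relative log2 ratio in that bin was 0.17 (0.076 to 0.26), opposite in sign to the other bins. The part of these differences was not tested beyond the removal of marked doublets, which left the mean of the 4 medians within its counting interval.

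Counted per cell and not in UPM, a β cell of the control held a mean of 324 UMIs of the 38 genes and 31390 of insulin. In the library labelled TBL/RBKO it held 429 and 21026. The mean total per β cell without hormone and mitochondrial genes was higher there too, at 42977 UMIs beside 26363 for the control. Scaled to that total, the 38 genes summed to 12295 UPM (control) and 9986 UPM (TBL/RBKO). The higher count of the list per cell was thus not a higher share of these UMIs. Ero1b went from 51.5 to 26.3 UMIs per β cell and Hspa5 from 26.6 to 45.2. In α cells the 38 genes gave 115 and 113 UMIs per cell.

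To see whether few or many cells carried these differences, each cell was thinned to 5000 UMIs without hormone and mitochondrial genes, which left out 8 control β cells, 7 control α cells and 8 α cells of the library labelled TBL/RBKO. Ero1b then had a UMI in 96.5% (95.8% to 97.2%) of control β cells and in 80.6% (78.3% to 82.7%) of the others, where the unthinned shares were 98.6% and 98.8%. P4hb had a UMI in 81.5% and 88.6% (unthinned 97.0% and 99.7%), Ern1 in 49.9% and 62.0% (89.0% and 96.9%) and Sdf2l1 in 50.1% and 34.7% (85.4% and 83.0%). Shares of the genes that mark strong stress depended much on depth. Ddit3 had a UMI in 27.8% (26.2% to 29.5%) and 26.2% (23.9% to 28.7%) of β cells, and unthinned in 69.2% and 76.1%. Chac1 had one in 18.2% and 19.3% (51.3% and 63.5%), and Trib3 in 11.4% and 13.4% (35.0% and 47.3%), beside 2.35% and 2.02% of α cells. Cells with at least 2 of these 3 genes made up 11.4% (10.2% to 12.6%) of β cells of the control library and 11.5% (9.85% to 13.3%) of TBL/RBKO β cells, and 2.51% and 1.89% of α cells. Unthinned, the β-cell shares were 51.7% and 64.4%. The intervals count cells of 1 library each and test no difference between conditions, and a UMI can be free RNA, estimated at 18.6% and 22.2% of UMIs in β cells.

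**Figure D5:**
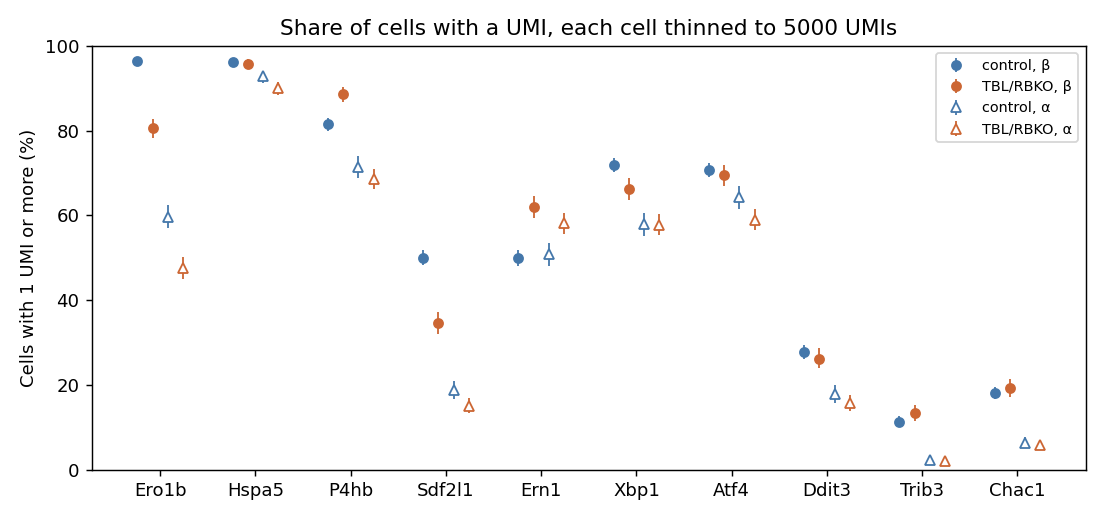
Share of cells with at least 1 UMI of each gene (vertical axis, %) after thinning of every cell to 5000 UMIs, for β cells (filled circles) and α cells (open triangles) of both libraries, with exact 95% binomial intervals as bars. Ero1b and Sdf2l1 are found in fewer β cells of the library labelled TBL/RBKO, P4hb and Ern1 in more, and the shares of Ddit3 overlap.

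Other genes of the pathway were taken from 5 lists of known pathway genes. Of their 125 genes, 118 were tested in β cells, and 3 were higher and 0 lower past 2-fold, with a median of 0.05. That is no more than the 4.04% and 2.16% of all genes. All 3 belong to the list of 23 further ATF4 targets, of which 19 were tested. Nupr1, a stress-induced chromatin protein, stood at 125 and 920 UPM, a relative log2 ratio of 3.04 (3.0095 to 3.07). Ddit4, an inhibitor of mTOR signalling, stood at 28.5 and 67.9 and had 1.41 (1.34 to 1.49), and Slc7a11, the cystine importer, stood at 10.9 and 25.03 and had 1.37 (1.24 to 1.49). The median of that list was 0.20. The lists of other sensors and regulators (21 genes tested), folding enzymes (22), degradation genes (22) and translocation and glycosylation genes (34) had 0 genes past 2-fold and medians of 0.02, 0.05, 0.03 and -0.02. In α cells 1 of 115 pathway genes tested was past 2-fold higher, beside 0.563% of all genes. It was Nupr1 at 3.44 and 19.1 UPM, which reached the minimum level only through the library labelled TBL/RBKO, and the part of free RNA from β cells in it was not tested. In δ cells 1 of 117 was higher, beside 0.808%, again Nupr1, with 1.15. In PP cells 4 of 119 were higher (Nupr1 at 2.09, Vldlr at 1.61, Ddit4 at 1.498 and Slc7a11 at 1.24) and 2 lower (Gdf15 at -1.10 and Prdx4 at -1.06), beside 4.15% and 1.21% of all genes. Heat shock and immediate early genes, which respond to cell handling, had 1 of 10 higher in β cells, beside the same 4.04%, Hspa1a at 12.5 and 22.8 UPM, and ranged from -0.60 to 1.022. In PP cells their median was -0.68, beside the -0.93 of Ppp1r15a there, and the part of handling was not tested.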

How the data were processed

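Islet cells were profiled by droplet sequencing at the 3′ end of transcripts (1 library per group). The authors made the deposited UMI counts with Cell Ranger 7.1.0, and the submitters' processing notes name GRCm39 and mm39. Values were whole-number counts, and the study's later removal of free RNA and of cells with 6000 genes or more was not part of them. No test was run, as a group is 1 sample. UMIs were summed by library and class, and the 7 hormone genes, 13 mitochondrial genes and 2 Cre features were left out of the total. Levels have exact Poisson intervals, ratios exact conditional binomial intervals and shares exact Clopper-Pearson intervals. A gene with 2 features, Ddit3, was read by its Ensembl identifier. Scrublet (scanpy 1.11.5) scored doublets, and an alternative removed the highest scores at 0.8% per 1000 barcodes. Another subtracted free RNA with the profile of the whole library, in an amount set per class by UMIs of the other classes' hormones. Others changed the scaling, the filters on cells and genes, the class rule, the depth per cell and the fold. Software was Python 3.11.15, numpy 2.4.6, scipy 1.17.1 and pandas 2.3.3. The ratio calculation was tested on simulated data.

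Every list gene is accounted for in β cells. Genes past 2-fold there, and Hspa5, Xbp1, Atf4 and Ddit3, are given in every class. Of other lists, genes past 2-fold with 100 UMIs or more are named, at most 3 per list and direction. Genes named beyond this were chosen after their values were seen. The members and lists were chosen with earlier results of these data known. The insulin bins from 20 to 60% and the sign over 3 scalings were chosen after seeing the data.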

Additional observations from a re-analysis of the deposited data

Results flagged for a closer look

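For 5 genes of the list, the relative log2 ratio was above 0 in β cells and below 0 in α cells, with intervals clear of 0 in both. The difference between the classes was not tested. The share of all genes with such opposite signs was not counted, and members lower in β and higher in α cells are not listed here. In β cells alone 40.2% of all genes tested had intervals above 0 and 39.3% below it, so the count of 5 says little by itself. Eif2ak3 had 0.07 and -0.14, Atf4 0.11 and -0.23, Ddit3 0.20 and -0.13, Herpud1 0.46 and -0.14, and Syvn1 0.21 and -0.23. In α cells the sign was the same in all 3 scalings for each of the 5. In β cells it was the same for Ddit3, Herpud1 and Syvn1, while Eif2ak3 (-0.09) and Atf4 (-0.05) turned without subtraction of the median of all genes.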

How the results depend on the processing

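No paired analysis was possible because each group is 1 library, and the labels share the number 1 alone. In β cells the members' median, -0.01, was -0.17 without subtraction of the median of all genes, 0.28 in CPM, 0.085 with fewer than 6000 genes per cell, 0.10 in cells of 1 hormone, -0.076 with a minimum of 50 UPM and -0.13 with no filter on low levels. The 1 member past 2-fold became 3 in CPM, with Ern1 and P4hb higher, beside 8.57% of all genes. It became 2 with no filter, with Derl3 lower, beside 17.6%, and 4 at 1.5-fold, beside 15.2%. In α cells the median was 0.064 in CPM. In PP cells the median was 0.23 in CPM. The count of 0 there became 1 without subtraction, 1 in CPM and 5 at 1.5-fold, beside 5.25%, 6.78% and 14.9% of all genes. In δ cells the count of 1 became 0 with under 5% mitochondrial UMIs and 0 with free RNA subtracted, beside 1.03% and 1.21% of all genes. The mean of the medians at like insulin share, 0.32, was 0.14 without subtraction and 0.12 in CPM. The causes were not tested. The other 94 recomputed values of these kinds stayed within the counting interval of the median or 1.5 times the count. Ratios of single genes were recomputed for Ero1b, P4hb, Ern1, Sdf2l1, Hspa5, Atf4, Ddit3 and Xbp1. Of these values, 81 moved out of the narrow counting interval of the main value and 39 stayed within it. In β cells Sdf2l1 ranged from -0.81 to -0.20 and Hspa5 from 0.06 to 0.61. Free RNA was estimated at 18.6% and 22.2% of UMIs in β cells, where cells of several hormones can raise the estimate. With 1 library per group, depth limits only counting error, and the spread between mice is unknown.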
